A study of Homo sapiens with 64 samples.

Results

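The interferon response genes are a listed set of 46 human genes whose products detect viral RNA, carry the interferon signal or act against viruses. The genes were taken by symbol from every count table. All 46 were found among the 26364 gene symbols of the C4-2 and immunoprecipitation tables, the 25207 of the HEK293T table and the 31796 gene names of the SLAM-seq files. The study depleted FBL (fibrillarin), the methyltransferase of the small nucleolar ribonucleoprotein that places 2′-O-methyl groups on RNA, or NOP56, a core protein of the same particle, and followed messenger RNA. The groups were C4-2 cells with siFBL and C4-2 cells with siCTRL, taken at 0, 3, 6 and 12 h, HEK293T cells with siFBL, HEK293T cells with siNOP56 and HEK293T cells with siCTRL, taken at 0, 6, 12 and 24 h, an anti-FBL RNA immunoprecipitation (RIP) and its input from C4-2 cells with siCTRL, and SLAM-seq libraries of C4-2 cells with siFBL and with siCTRL, labelled with 100 µM 4-thiouridine for 24 h and chased with 10 mM uridine for 0, 6, 12 and 24 h. Each group and time had 2 libraries. C4-2 is a prostate cancer line and HEK293T an embryonic kidney line with the SV40 large T antigen, so each result describes 1 established line, and the labels name no treatment with interferon or a virus. In total 60 of the 64 samples were analysed, and the 4 nanopore samples were not analysed here.

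Cells detect double-stranded or unusually capped RNA with sensors such as DDX58 (RIG-I) and IFIH1 (MDA5), which lead to production of type I interferons. Interferon bound to its receptor activates a complex that holds STAT2 and IRF9, and this complex binds a promoter sequence called the interferon-stimulated response element (ISRE) and switches on a large group of antiviral genes. IFIT1, a product of such a gene, binds capped RNA whose cap-proximal nucleotide lacks a 2′-O-methyl group, and USP18 holds the receptor's signal down.

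Library totals were 79030570 to 106116071 counts in C4-2, 15957331 to 19881543 counts in HEK293T, 22909634 to 33270113 counts in the RIP table and 14308365 to 60310841 mapped reads in SLAM-seq. CPM here are counts scaled to each library's total times its TMM factor, a scaling between libraries. At 0 h FBL stood at 3.63 and 2.76 CPM in siFBL C4-2 libraries, against 304.9 and 265.4 CPM in siCTRL libraries. In HEK293T FBL stood at 17.7 and 15.5 CPM in siFBL libraries at 0 h, against 321.9 and 313.0 CPM in siCTRL libraries. NOP56 stood at 91.9 and 76.3 CPM in siNOP56 HEK293T libraries, against 205.8 and 203.9 CPM in siCTRL libraries. All 8 prostate luminal markers averaged at least 1 CPM in C4-2. In HEK293T 3 of the 8 did so with siCTRL and with siFBL and 2 with siNOP56, while KLK3 and KLK2 were below 0.1 CPM. All 6 HEK293T markers averaged at least 1 CPM in HEK293T, and 3 with siCTRL and 4 with siFBL did so in C4-2. The 6 fibroblast markers summed to 25.6 to 42.3 CPM in siFBL C4-2 libraries and to 26.0 to 47.9 CPM in siCTRL libraries. The 6 leukocyte markers summed to 19.5 to 47.4 CPM in siFBL C4-2 libraries and to 19.4 to 27.3 CPM in siCTRL libraries, with CD3E below 0.1 CPM in siCTRL libraries, and their part in the results was not tested. The C4-2 tables mark 2 libraries per group and hour, here called A and B. Libraries of the same group differed more with siFBL than with siCTRL: the mean chi-square per gene between A and B was 117 to 156 with siFBL and 10.9 to 24.3 with siCTRL. Nothing in the labels says that the 2 libraries came from separate cultures, so the p-values measure the spread between these libraries, which may be technical.

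The promoters of 38 of the 46 genes were held in the RefSeq table used here (GRCh38.p14, 250 bases before to 50 bases after each start). The core of the ISRE, searched as TTTCNNTTTC or its reverse complement GAAANNGAAA, occurred in 22 of these 38 promoters (57.9%), against 996 of 27305 promoters of all genes (3.65%). The core of the gamma-activated site, TTCNNNGAA, reads the same on both strands and can overlap the ISRE core. It occurred in 9 of the 38 promoters (23.7%), against 2152 of all promoters (7.88%). The 200 bases before the start are shown for 6 genes whose levels the results turn on, on the strand of the gene, with ISRE cores in capitals. They lie on chr1:27672193-27672392 (IFI6, minus strand), chr1:1013297-1013496 (ISG15, plus), chr10:89392423-89392622 (IFIT1, plus), chr6:32853705-32853904 (TAP1, minus), chr12:112938274-112938473 (OAS3, plus) and chr12:112906762-112906961 (OAS1, plus).
IFI6: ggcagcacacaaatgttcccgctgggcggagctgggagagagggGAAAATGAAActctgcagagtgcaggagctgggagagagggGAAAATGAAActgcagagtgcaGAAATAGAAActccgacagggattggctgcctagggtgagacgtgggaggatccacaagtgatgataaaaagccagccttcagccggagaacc
ISG15: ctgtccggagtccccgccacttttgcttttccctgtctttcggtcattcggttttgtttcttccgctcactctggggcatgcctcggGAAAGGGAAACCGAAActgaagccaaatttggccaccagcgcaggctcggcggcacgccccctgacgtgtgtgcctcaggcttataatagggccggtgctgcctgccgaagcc
IFIT1: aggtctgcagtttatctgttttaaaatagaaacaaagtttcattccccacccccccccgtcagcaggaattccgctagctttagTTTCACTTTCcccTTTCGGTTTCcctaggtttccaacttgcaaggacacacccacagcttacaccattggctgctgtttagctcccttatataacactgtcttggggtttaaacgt
TAP1: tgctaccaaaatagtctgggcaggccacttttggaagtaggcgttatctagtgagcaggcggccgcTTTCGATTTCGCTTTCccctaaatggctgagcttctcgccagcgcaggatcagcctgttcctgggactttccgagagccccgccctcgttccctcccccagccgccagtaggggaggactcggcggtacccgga
OAS3: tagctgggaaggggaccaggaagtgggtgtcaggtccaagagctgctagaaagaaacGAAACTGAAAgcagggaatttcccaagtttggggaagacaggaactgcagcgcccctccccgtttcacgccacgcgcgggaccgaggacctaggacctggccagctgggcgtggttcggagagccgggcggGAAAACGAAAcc
OAS1: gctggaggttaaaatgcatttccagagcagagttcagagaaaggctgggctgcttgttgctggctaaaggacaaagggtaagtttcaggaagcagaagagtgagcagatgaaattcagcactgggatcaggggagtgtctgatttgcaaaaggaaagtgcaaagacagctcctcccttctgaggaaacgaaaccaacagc
The IFI6 window holds 3 separate cores, those of IFIT1 and OAS3 hold a pair each, and in ISG15 and TAP1 overlapping cores form 1 run of 16 bases. OAS1 has none in these letters, which says nothing about factors bound there. Among the genes shown, IFI6, ISG15, IFIT1, TAP1 and OAS1 rose and OAS3 fell in siFBL C4-2 cells at 0 h.

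In C4-2 cells with siCTRL at 0 h, 21 of the 46 genes averaged at least 5 CPM, 14 lay between 1 and 5 CPM and 11 below 1 CPM. The 5 genes with the highest mean level over all C4-2 libraries were IFITM3 (243.5 CPM), IFITM2 (96.5 CPM), ISG15 (88.8 CPM), TRIM25 (83.0 CPM) and PARP12 (51.8 CPM). Per kilobase of transcript the order at 0 h with siCTRL was IFITM3 at 185.4, IFITM2 at 76, ISG15 at 56.5 and TRIM25 at 17.1 CPM per kilobase. IFITM2 and IFITM3, membrane proteins that block virus entry, are close paralogs, and how reads shared between them were counted is not stated in the labels or headers. In HEK293T cells 24 genes averaged below 1 CPM with siCTRL at 0 h, 14 of them below 0.1 CPM. In HEK293T the highest mean levels were those of TRIM25 (60.7 CPM), STAT2 (45.9 CPM), IFITM2 (28.2 CPM), HERC5 (26.6 CPM) and IFITM1 (23.8 CPM). PARP12, PARP14, OAS1, OAS2, MX2, RSAD2, XAF1 and IFI44 each had at most 5 counts over all 24 HEK293T libraries.

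Depletion of FBL in C4-2 cells was accompanied at 0 h by higher levels of 10 of the 46 interferon response genes and lower levels of 2. The genes that rose were IFI6, ISG15, IFIT1, OAS1, OASL, IFI27, SAMD9L, TRIM22, IFI44L and TAP1, and those that fell were OAS3 and USP18. Among all 23437 genes tested 8.48% were called at an edgeR adjusted p below 0.05, with 1.61% higher and 6.87% lower, while 26.1% of the interferon response genes were called. The median log2 difference of siFBL over siCTRL was 0.38 over the 46 genes and 0.04 over all genes, and 32 of the 46 lay above 0. The 3 RNA sensors DDX58, IFIH1 and DDX60, the 4 signalling factors, the 4 genes of the PARP group and both MX genes passed no test at 0 h.

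IFI6, a small protein of mitochondrial and endoplasmic reticulum membranes, stood at 31.0 and 32.8 CPM in siFBL libraries, against 10.1 and 8.12 CPM in siCTRL libraries at 0 h. Both siFBL libraries lay far above both siCTRL libraries. In bulk libraries such as these, more cells with a messenger and more of it per cell cannot be told apart. The log2 difference was 1.81 (SE 0.26, edgeR adjusted p = 0.000337). IFI27, a related mitochondrial protein, had 1.98 and 1.74 CPM in siFBL libraries, against 0.148 and 0.437 CPM in siCTRL libraries, with a log2 difference of 2.66 (SE 0.64, adjusted p = 0.0164). Both siFBL values lay above both siCTRL values, at a low level. The other members of the membrane group had no call at 0 h: BST2 (tetherin, which holds budding virus at the cell surface) had 1.51 and 4.67 CPM in siFBL libraries, against 0.881 and 0.902 CPM in siCTRL libraries (adjusted p = 0.0896). IFITM1 had 5.60 and 8.65 CPM in siFBL libraries, against 3.78 and 3.85 CPM in siCTRL libraries (adjusted p = 0.116). In both, library B stood above library A with siFBL.

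ISG15, a ubiquitin-like protein joined to other proteins during the antiviral response, had 70.4 and 98.5 CPM in siFBL libraries, against 44.3 and 44.6 CPM in siCTRL libraries. The groups did not overlap, and library B was the higher of the siFBL pair. Its log2 difference was 0.93 (SE 0.19, edgeR adjusted p = 0.00577). USP18, the protease that removes ISG15 and dampens receptor signalling, went the other way, with 11.4 and 13.2 CPM in siFBL libraries, against 19.7 and 19.8 CPM in siCTRL libraries. The log2 difference was -0.68 (SE 0.17, adjusted p = 0.0188), both siFBL libraries lying below both siCTRL libraries. Scaled by library totals alone, which moved the median of all genes by 0.26 on the log2 scale, the USP18 difference was -0.43 with an adjusted p of 0.101. HERC6, the ISG15 ligase HERC5 and the ubiquitin ligase TRIM25 were not called. TRIM25 had 59.1 and 78.3 CPM in siFBL libraries, against 103.0 and 92.9 CPM in siCTRL libraries (adjusted p = 0.0565).

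The oligoadenylate synthetases, which on binding double-stranded RNA make the activator of RNase L, moved in opposite directions. OAS1 had 2.42 and 2.78 CPM in siFBL libraries, against 1.07 and 1.03 CPM in siCTRL libraries, with a log2 difference of 1.31 (SE 0.29, edgeR adjusted p = 0.00884). OASL, a family member without synthetase activity that supports RIG-I, had 4.47 and 5.69 CPM in siFBL libraries, against 2.50 and 1.89 CPM in siCTRL libraries, with a log2 difference of 1.21 (SE 0.26, adjusted p = 0.00842). OAS3 had 16.8 and 14.6 CPM in siFBL libraries, against 49.0 and 45.2 CPM in siCTRL libraries. No value of one group reached those of the other in any of the 3 genes. The log2 difference of OAS3 was -1.59 (SE 0.29, adjusted p = 0.00269). OAS2 had 1.24 and 1.76 CPM in siFBL libraries, against 0.287 and 0.711 CPM in siCTRL libraries, and was not called (adjusted p = 0.154). ISG20, an exonuclease placed in the same group, had 22.3 and 22.8 CPM in siFBL libraries, against 16.8 and 18 CPM in siCTRL libraries (adjusted p = 0.214).

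IFIT1 had 4.09 and 3.64 CPM in siFBL libraries, against 1.6 and 1.49 CPM in siCTRL libraries, so that all siFBL values lay above all siCTRL values at 0 h. Its log2 difference was 1.32 (SE 0.27, edgeR adjusted p = 0.00563). Its partners were not called: IFIT2 had 2.46 and 5.11 CPM in siFBL libraries, against 1.46 and 1.58 CPM in siCTRL libraries (adjusted p = 0.139), and IFIT3 and IFIT5 had log2 differences of 0.77 and -0.56. TAP1, a subunit of the transporter that carries peptides to MHC class I, had 35.6 and 60.0 CPM in siFBL libraries, against 23.5 and 24.1 CPM in siCTRL libraries. The siFBL pair was wide apart but both lay above siCTRL, with a log2 difference of 1.0 (SE 0.26, adjusted p = 0.0260). The immunoproteasome subunits PSMB8 and PSMB9, which prepare such peptides, had log2 differences of -0.27 and 0.38 and were not called.

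Among the other effectors, 3 of 10 rose, all from below 0.5 CPM in siCTRL libraries. TRIM22, a ubiquitin ligase of the tripartite motif family, had 1.25 and 3.08 CPM in siFBL libraries, against 0.436 and 0.118 CPM in siCTRL libraries (log2 difference 2.96, SE 0.76, edgeR adjusted p = 0.0235). SAMD9L, which slows translation in infected cells, had 1.54 and 0.518 CPM in siFBL libraries, against 0.0927 and 0.191 CPM in siCTRL libraries (2.84, SE 0.72, adjusted p = 0.0212). IFI44L had 1.01 and 0.879 CPM in siFBL libraries, against 0.148 and 0.164 CPM in siCTRL libraries (2.59, SE 0.74, adjusted p = 0.0396). In each of the 3 the groups did not overlap, though the siFBL pairs of TRIM22 and SAMD9L were wide apart, in opposite order. SAMD9, RSAD2 (viperin), CMPK2, XAF1, SP100, IFI35 and IFI44 were not called, with log2 differences between -0.60 and 1.45. Of these, SAMD9, RSAD2, XAF1, SP100 and IFI44 also stood above siCTRL without overlap at 0 h, and CMPK2 below. With 2 libraries per group, such a gap alone does not set called genes apart.

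**Figure D1:**
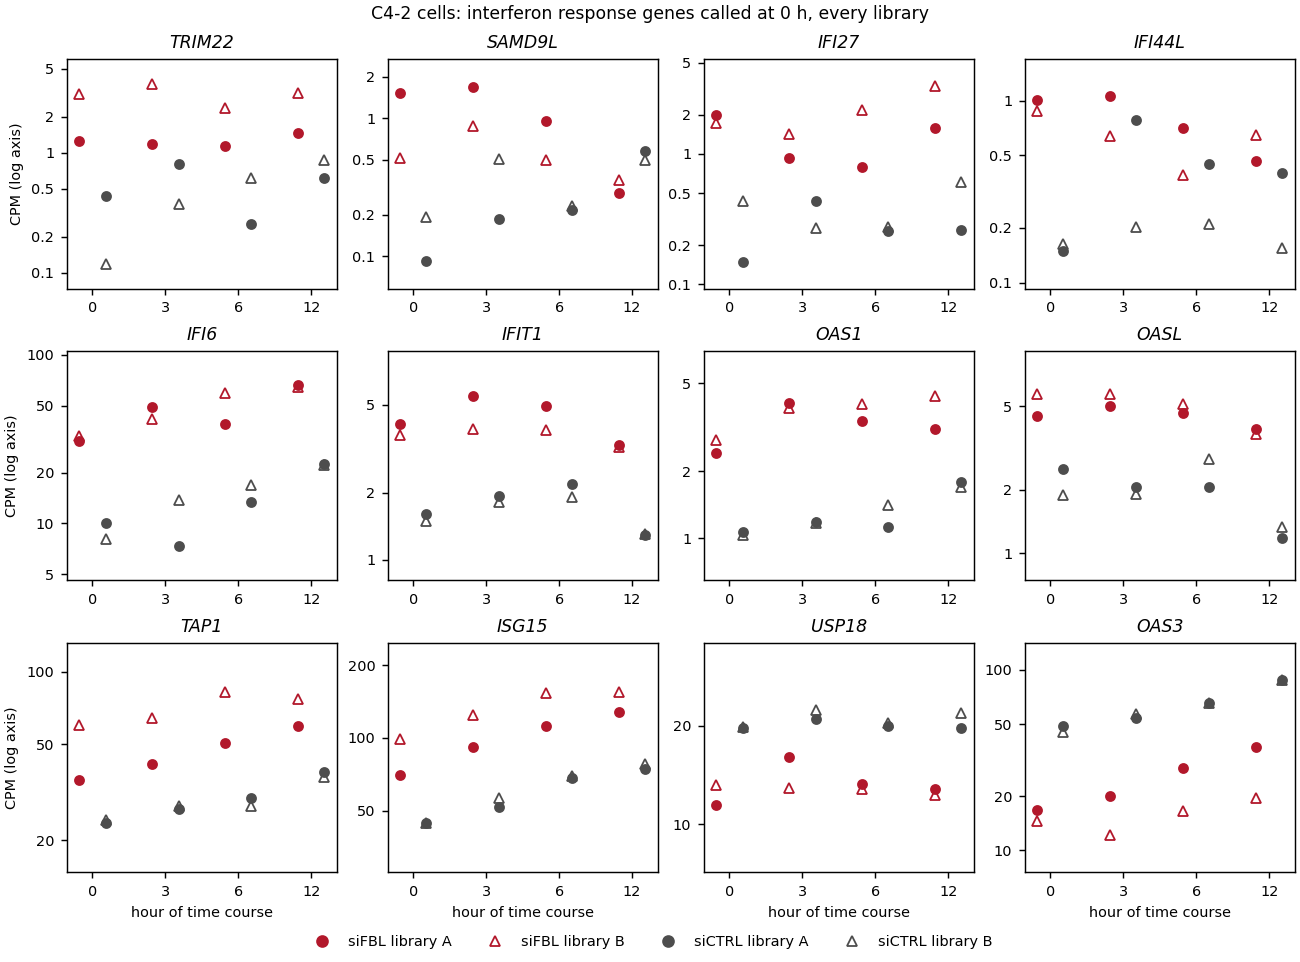
CPM on a log axis of the 12 genes called at 0 h in C4-2 cells, every library at 0, 3, 6 and 12 h, siFBL left of siCTRL, with circles for library A and open triangles for library B. IFI6 stood at 31.0 and 32.8 CPM with siFBL at 0 h, against 10.1 and 8.12 CPM with siCTRL, while OAS3 stood at 16.8 and 14.6 CPM, against 49.0 and 45.2 CPM.

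The plot of the 12 genes shows that most kept their order through the later hours. At 3 h 13 of the 46 genes were called, 11 higher and 2 lower, against 11.9% of all genes (2.98% higher and 8.94% lower). The same counts held at 6 h, against 9.05% of all genes (2.13% and 6.92%), and at 12 h, against 13.4% (2.73% and 10.7%). ISG15, USP18, OAS1, OAS3, OASL, IFIT1, IFI6 and TAP1 were called at all 4 hours, 27 genes at none. The median log2 difference of the 46 genes was 0.51, 0.43 and 0.33 at 3, 6 and 12 h, against 0.09, 0.00 and 0.00 over all genes.

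At 12 h IFI6 stood at 65.8 and 64.4 CPM in siFBL libraries, against 22.6 and 22.3 CPM in siCTRL libraries, and ISG15 at 128 and 155 CPM, against 74.2 and 77.9 CPM. OAS3 had 37.4 and 19.5 CPM in siFBL libraries, against 87.5 and 88.0 CPM in siCTRL libraries at 12 h. The siFBL and siCTRL values of these 3 genes stayed apart, and with siFBL library A of OAS3 lay above library B at every hour. Several genes not called at 0 h were called later. BST2 was called from 3 h on and had 3.16 and 6.51 CPM in siFBL libraries, against 0.486 and 0.865 CPM in siCTRL libraries at 3 h, with a log2 difference of 2.84 (SE 0.65, edgeR adjusted p = 0.0094). IFITM1 was likewise called at 3, 6 and 12 h with log2 differences of 1.27, 1.22 and 1.16, and IFITM3 at 3 and 6 h with 0.71 and 0.51. OAS2 was called at 3 and 12 h (2.31 and 2.39), ISG20 at 3 h (0.64), RSAD2 at 6 h (2.84) and IFIT3 at 12 h (2.39). In the other direction, TRIM22, SAMD9L and IFI44L passed the test at 0 h alone. At 12 h SAMD9L stood at 0.288 and 0.356 CPM in siFBL libraries, against 0.575 and 0.496 CPM in siCTRL libraries, below them. None of the sensors, signalling factors, PARP group or MX genes was called at any hour.

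Over all hours, each of the 8 siFBL libraries lay above each of the 8 siCTRL libraries for 7 genes, namely IFI6, IFI27, IFIT1, OAS1, OAS2, OASL and TRIM22. This held for 1.66% of 20831 genes averaging at least 0.1 CPM. USP18 and OAS3 lay below in all 8, which held for 5.51% of genes, and the other 37 overlapped. IFI6 ran from 31.0 through a median of 45.2 to 65.8 CPM in siFBL libraries and from 7.34 through 13.6 to 22.6 CPM in siCTRL libraries. OAS1 ran from 2.42 through a median of 3.62 to 4.37 CPM in siFBL libraries and from 1.03 through 1.17 to 1.79 CPM in siCTRL libraries. USP18 had 11.4 CPM at the lowest, 12.9 at the median and 16 at the highest in siFBL libraries, and 19.7, 20.1 and 22.3 CPM in siCTRL libraries. The gap between the groups was narrower than the range of either group for OAS1, but wider than the siCTRL range for USP18. MX1, a dynamin-like GTPase and a common marker of interferon exposure, overlapped, with 0.920, 1.36 and 2.53 CPM in siFBL libraries and 1.18, 1.73 and 2.34 CPM in siCTRL libraries.

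Libraries A and B of siFBL differed for part of the set. Library B was higher than A at all 4 hours for 10 genes, among them BST2 (mean log2 difference of B over A 1.38), TRIM22 (1.22), IFITM1 (0.76), TAP1 (0.62) and ISG15 (0.41). Library A was higher at all 4 hours for 6 genes, RSAD2, CMPK2, OAS3, IFIH1, PARP9 and IFIT1, with a mean log2 difference of B over A of -1.14 for RSAD2 and -0.66 for OAS3. These 16 genes were 34.8% of the set, against 29% of 20745 genes with at least 160 counts in all, and with siCTRL 8.70% of the set was one-sided, against 11.8% of genes. Without siCTRL library A at 0 h, 4 genes were called at 0 h (IFI6, OAS3, OASL and TRIM22), and without siCTRL library B 4 (IFI6, IFI27, ISG15 and OAS3). Without siFBL library B 7 were called and without siFBL library A 9. With the 0 h libraries alone 12 were called. IFI6 and OAS3 kept their calls in all 13 alternatives run for them, and SAMD9L lost its call in 5.

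Genes next to the set in the pathway were read from lists chosen with earlier results of these data known. None of the 8 interferon ligand genes tested was called at 0 h, all at low counts: IFNB1 had 8 and 12 counts in siFBL libraries, against 0 and 3 counts in siCTRL libraries. Of 13 receptor and kinase genes PTPN11 was called, lower (log2 difference -0.52), and of 14 sensing adaptors and kinases TRAF3, lower (-0.53). No gene of 14 in antigen presentation and none of 17 in the list of NF-kB targets and chemokines was called. Beside these lists, 8.48% of all genes tested were called at 0 h, with 1.61% higher and 6.87% lower. Of 40 further interferon-induced antiviral genes 1 rose and 5 fell. The gene that rose was GBP2, a guanylate-binding protein, with 1.97 and 2.14 CPM in siFBL libraries, against 0.677 and 1.06 CPM in siCTRL libraries (log2 difference 1.24, edgeR adjusted p = 0.0446). APOBEC3B, a cytidine deaminase, fell furthest, with 20.3 and 17.4 CPM in siFBL libraries, against 48.8 and 51.4 CPM in siCTRL libraries (-1.41, adjusted p = 0.000322). PLSCR1, NT5C3A, TRIM14 and PNPT1 also fell, by 1.22, 0.80, 0.65 and 0.65 on the log2 scale.

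In HEK293T cells no interferon response gene was called at 0 h. With siFBL 29 genes could be tested and none passed edgeR's adjusted p of 0.05, against 1.74% of all genes. At an unadjusted p below 0.05 were 1 gene higher and 4 lower, against 18.0% of all genes, and DESeq2 called 2 (IFIT1 and STAT2, both lower), against 5.21%. With siNOP56 none of 29 passed either, against 0.187% of all genes, with 2 higher and 4 lower at an unadjusted p below 0.05, against 12.0%, and 2 called by DESeq2 (IFIT1 lower and IRF7 higher), against 1.43%. The counts at an unadjusted p were 5 and 6 of 29 genes. IFIT1 had 1.66 and 1.69 CPM in siFBL libraries and 1.95 and 1.61 CPM in siNOP56 libraries, against 5.01 and 3.61 CPM in siCTRL libraries. Both depletions stood below control without overlap. The log2 differences were -1.36 (SE 0.36, edgeR adjusted p = 0.0603) with siFBL and -1.27 (SE 0.35, adjusted p = 0.159) with siNOP56. IRF7, a transcription factor of the interferon genes, had 1.71 and 1.93 CPM in siFBL libraries and 2.39 and 3.65 CPM in siNOP56 libraries, against 1.29 and 0.818 CPM in siCTRL libraries. STAT2 had 26.4 and 26.5 CPM in siFBL libraries and 25.5 and 28.9 CPM in siNOP56 libraries, against 34.2 and 32.5 CPM in siCTRL libraries.

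At later hours siFBL gave a few calls in HEK293T. At 6 h IFI44L was called, lower (log2 difference -2.09, edgeR adjusted p = 0.0272), 1 of 29 genes against 6.63% of all genes. At 12 h IFIT1 was called, lower (-2.30, adjusted p = 0.00665), against 10.9% of all genes. At 24 h 3 of 29 were called, against 15.1% of all genes: HERC5 rose (0.72), while STAT2 (-0.44) and IFI44L (-2.15) fell. HERC5 had 26.3 and 32.3 CPM in siFBL libraries at 24 h, against 18.1 and 17.5 CPM in siCTRL libraries, and STAT2 had 45.0 and 44.4 CPM, against 60.9 and 60.9 CPM. IFI44L was low throughout, from 0.0648 through a median of 0.433 to 0.597 CPM in siFBL libraries and from 0.984 through 1.21 to 1.69 CPM in siCTRL libraries. It was the only gene of the set with all 8 siFBL libraries below all 8 siCTRL libraries, which held for 1.78% of genes, and none lay above, which held for 1.76%. With siNOP56 none was called at 6, 12 or 24 h, against 0.683%, 1.53% and 5.31% of all genes. At an unadjusted p below 0.05 siNOP56 gave 0 higher and 2 lower at 6 h, 1 and 5 at 12 h, and 1 and 3 at 24 h, against 14.9%, 17.6% and 21.1% of all genes. DESeq2 called IFIT1, lower, at 6 h and none at 12 or 24 h, against 2.86%, 5.01% and 8.78% of all genes.

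**Figure D2:**
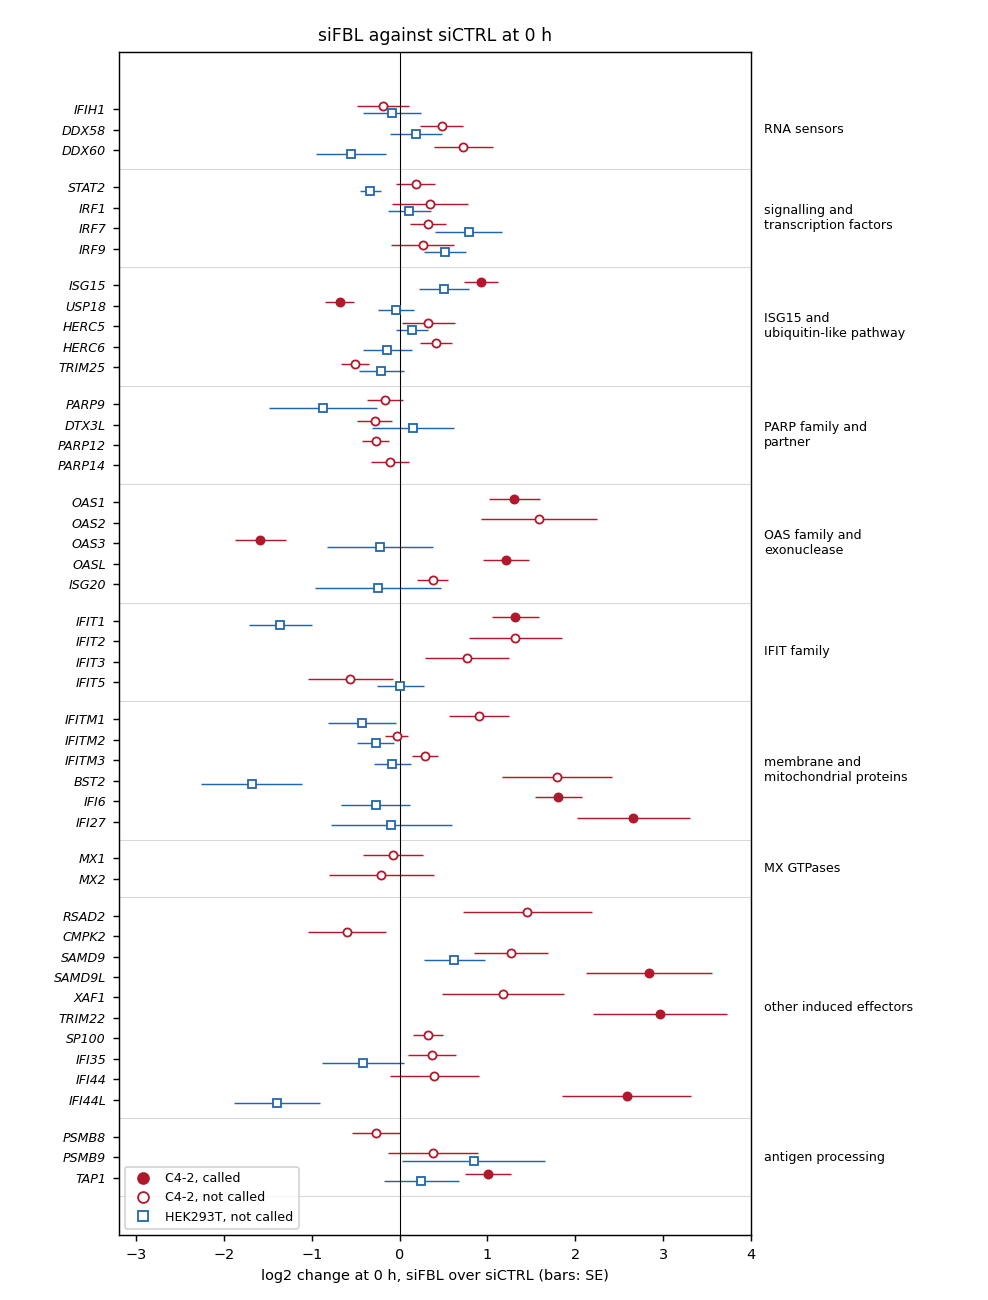
Log2 difference of siFBL over siCTRL at 0 h for every interferon response gene, grouped by role, in C4-2 and HEK293T cells, with bars of 1 standard error. IFI6 lies at 1.81 and IFIT1 at 1.32 in C4-2, where IFIT1 lies at -1.36 in HEK293T.

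The plot by role sets the 2 lines side by side, and the difference between them was tested as an interaction. The siFBL effect at 0 h in C4-2 exceeded that in HEK293T for 5 of 46 genes, all in that direction, against 7.36% of all genes (2.81% higher and 4.55% lower). IFI6 had an interaction of 2.27 on the log2 scale (SE 0.35, edgeR adjusted p = 0.000198) and IFIT1 one of 2.86 (SE 0.48, adjusted p = 0.000456). In HEK293T, IFI6 stood at 3.97 and 5.83 CPM in siFBL libraries, against 5.77 and 6.07 CPM in siCTRL libraries, so that it lacked the gap seen in C4-2. IFI44L (4.17, adjusted p = 0.00792), BST2 (3.66, adjusted p = 0.0232) and OASL (3.13, adjusted p = 0.0265) also passed. With the 0 h libraries alone these 5 and OAS3 were called, OAS3 in the other direction (-1.19, adjusted p = 0.0261). IFI44L had 12 and 6 counts in siFBL HEK293T libraries, against 28 and 23 counts in siCTRL libraries. OASL had 0 to 11 counts and BST2 3 to 51 counts over the HEK293T libraries. The values of IFI44L, OASL and BST2 thus rest on few reads in that line. BST2 was called at 0 h in neither line alone. In HEK293T alone 29 of the 46 genes passed the filter on low counts. OASL did not, and it entered the joint fit through its C4-2 counts. The 2 lines were grown in different media and their tables were made separately, so a difference between lines and one between experiments cannot be told apart.

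Over the hours of the time course some of the 46 genes lost share of the messenger RNA and others gained it. The way transcription was stopped is not stated in the labels, and a slope is the change of log2 CPM per hour relative to other messenger RNAs. With siFBL in C4-2, 14 of 46 slopes were called, 6 positive and 8 negative, against 36.1% of all genes. With siCTRL 17 of 46 were called, 11 positive and 6 negative, against 35.0% of all genes (15.9% and 19.2%). The negative slopes with siCTRL were those of IRF1 (-0.36 per hour, SE 0.08), IFIT5 (-0.27), DTX3L (-0.17), IFIT3 (-0.16), DDX58 (-0.13) and IFIT2 (-0.13). With siFBL IRF1 again had the steepest loss (-0.33 per hour), with IFIT5 at -0.20, DDX58 at -0.13 and DTX3L at -0.11.

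IRF1, a transcription factor with a short-lived messenger, had 4.23 and 6.41 CPM at 0 h, 0.548 and 0.903 CPM at 3 h, 0.458 and 0.190 CPM at 6 h, and 0.324 and 0.333 CPM at 12 h with siFBL. With siCTRL it had 3.95 and 4.43 CPM at 0 h, 0.272 and 0.298 CPM at 3 h, 0.161 and 0.359 CPM at 6 h, and 0.188 and 0.213 CPM at 12 h. Most of the loss came before 3 h in both groups. Among called slopes the steepest gains were those of IFITM3 (0.09 per hour), IFI6 (0.08) and IFITM2 (0.08) with siFBL. With siCTRL they were those of IFI6 (0.11), IFITM2 (0.09) and IFITM3 (0.08), while SAMD9L (0.127) and TRIM22 (0.092) were not called. IFITM3 had 169.9 and 197 CPM at 0 h and 357 and 421 CPM at 12 h with siFBL, and 141 and 159 CPM at 0 h and 306 and 277 CPM at 12 h with siCTRL. Its share of the messenger RNA grew in both groups.

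The difference between the siFBL and siCTRL slopes was called by edgeR for none of the 46 genes in C4-2, and for 0.00437% of all genes. At an unadjusted p below 0.05 DTX3L (0.06 per hour), IFIT3 (0.13) and TRIM25 (0.03) had higher slopes with siFBL and SAMD9L (-0.29) a lower one, 4 of 46 against 4.72% of all genes, and DESeq2 called none, against 0.0787%. DTX3L, the ubiquitin ligase partner of PARP9, had 23.9 and 32.2 CPM at 0 h and 13 and 10.8 CPM at 12 h with siFBL, and 35.9 and 32.3 CPM at 0 h and 8.45 and 9.01 CPM at 12 h with siCTRL. The siFBL values were the lower ones at 0 h and the higher ones at 12 h.

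In HEK293T, 28 genes were tested for slopes. With siFBL 12 were called, against 52.3% of all genes, with siNOP56 12, against 51.4%, and with siCTRL 16, against 50.8%. The negative slopes of IRF1, IFIT5 and DDX58 and the positive slopes of IFI6, IFITM2 and IFITM3 in C4-2 had the same sign in HEK293T with siCTRL (-0.08, -0.09, -0.07, 0.08, 0.07 and 0.06 per hour). IRF1 had 7.30 and 7.62 CPM at 0 h and 1.19 and 1.25 CPM at 6 h with siFBL, 8.46 and 7.83 and then 1.68 and 1.88 CPM with siNOP56, and 6.96 and 6.84 and then 1.13 and 1.23 CPM with siCTRL. At 0 h both siNOP56 libraries lay above both siFBL libraries and these above both siCTRL libraries, while at 6 h siFBL and siCTRL overlapped below siNOP56. No slope difference was called for siFBL or siNOP56 against siCTRL, in the set or among all genes (0.00%), and none of the 28 genes had an unadjusted p below 0.05 by edgeR, against 3.01% of all genes with siFBL and 1.26% with siNOP56. DESeq2 called none of the 28 either, against 0.0408% and 0.0204% of all genes.

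**Figure D3:**
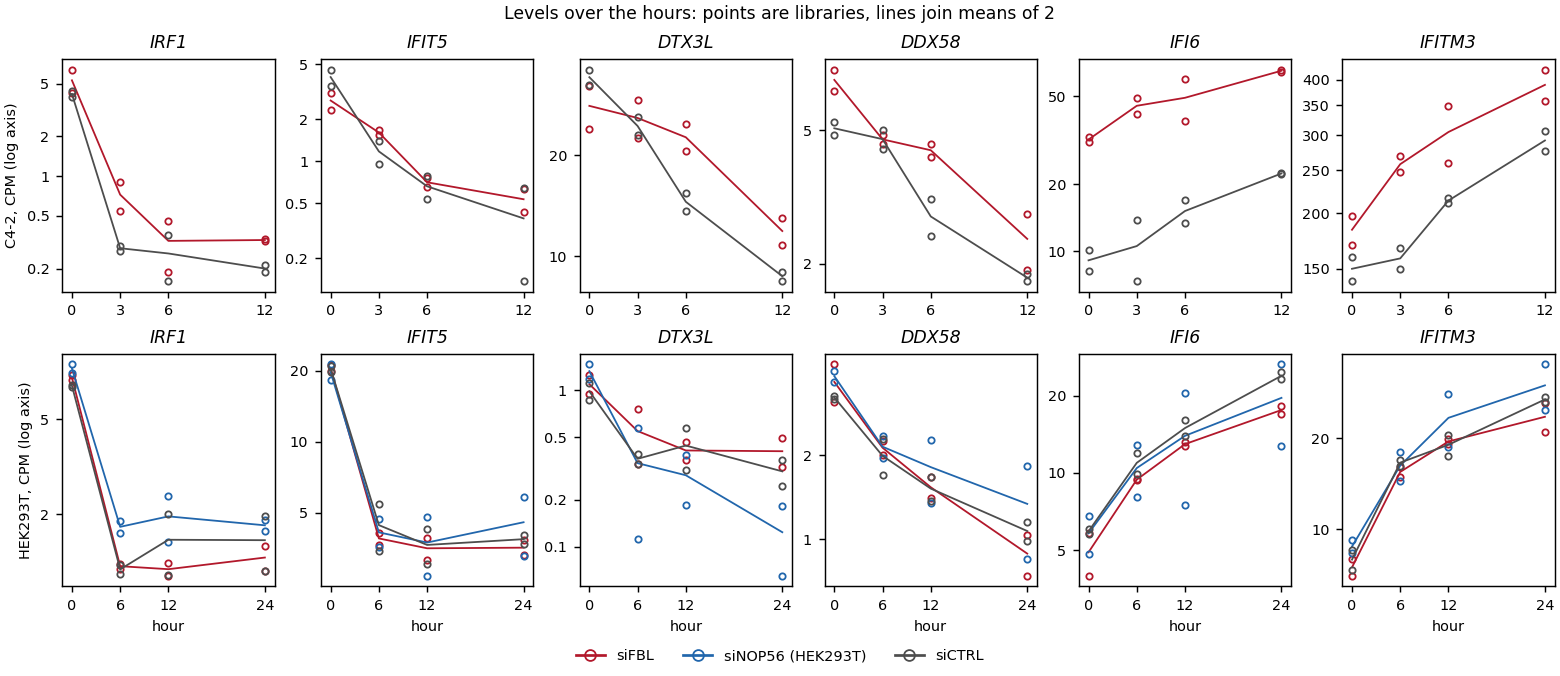
CPM of IRF1, IFIT5, DTX3L, DDX58, IFI6 and IFITM3 over the hours of the time course in C4-2 and HEK293T cells, each point 1 library, by group. IRF1 falls to 0.548 and 0.903 CPM at 3 h with siFBL in C4-2 and to 0.272 and 0.298 CPM with siCTRL, while the mean of IFI6 is higher at the last hour than at 0 h in all groups.

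In the anti-FBL immunoprecipitation from C4-2 cells with siCTRL, long messengers of the set were over-represented and short ones under-represented relative to input. Of 46 genes 40 were tested and 30 called, 15 higher and 15 lower, against 82.9% of all genes (39.9% higher and 43.0% lower), so that the count is below the background. The samples used here include no control antibody, and recovery of RNA by FBL and by the beads or the antibody cannot be told apart. PARP14, a mono-ADP-ribosyltransferase, was furthest above input, with 258 and 256 CPM in RIP libraries, against 32.3 and 31.4 CPM in input libraries. The log2 difference was 3.01 (SE 0.07, edgeR adjusted p = 2.67e-26). SAMD9 came next (8.08 and 6.97 CPM in RIP libraries, against 1.21 and 1.26 CPM in input libraries, log2 difference 2.60). Among genes averaging at least 5 CPM, those after PARP14 were DDX60, a helicase that aids RNA sensing (13.4 and 15.5 CPM in RIP libraries, against 3.75 and 3.47 CPM in input libraries), and IRF7 (19.7 and 24.3 CPM, against 6.42 and 5.61 CPM). HERC5 had 30.5 and 28.9 CPM in RIP libraries, against 11.9 and 9.87 CPM in input libraries, and HERC6 32.2 and 36.2 CPM, against 13.6 and 14.4 CPM. In all 6 both RIP libraries lay above both input libraries.

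At the other end, among genes averaging at least 5 CPM, ISG15 had 12.2 and 10.5 CPM in RIP libraries, against 67.9 and 62.4 CPM in input libraries, with a log2 difference of -2.52 (SE 0.09, edgeR adjusted p = 7.34e-22). IFITM2 had 2.46 and 3.23 CPM in RIP libraries, against 7.94 and 9.15 CPM in input libraries, and IFI35 3.46 and 4.75 CPM, against 13.1 and 11.4 CPM. ISG20 had 12.2 and 11.5 CPM in RIP libraries, against 33.2 and 31.0 CPM in input libraries, and USP18 15.0 and 16.2 CPM, against 33.3 and 34.4 CPM. No library of these genes crossed between the groups. By role, the 3 sensors and the 4 genes of the PARP group were all higher, as was 1 of the 4 signalling factors (IRF7). Of the 5 genes of the ISG15 group 3 were higher and 2 lower, of the 4 tested in the group of OAS genes and ISG20 1 higher and 3 lower, and of the 5 tested in the membrane group 1 higher and 4 lower. Within the OAS family, OAS3 had 138 and 141 CPM in RIP libraries, against 75.8 and 77.8 CPM in input libraries, while OAS1 and OASL were lower in RIP (log2 differences -1.17 and -1.0).

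The direction in RIP went with transcript length. Of the 10 tested genes with transcripts of at least 4000 nt 8 were higher and 1 lower in RIP, with a median log2 difference of 0.91. Of the 18 genes from 2000 nt up to 4000 nt 6 were higher and 5 lower (median -0.12), and of the 12 below 2000 nt 1 was higher and 9 lower (median -1.58). All genes ran the same way: 62.3% of 5251 genes of at least 4000 nt were higher (median 0.60) and 69.1% of 2601 genes below 2000 nt were lower (median -1.08). As a description, Spearman's rho between length and log2 difference was 0.72 over the 40 genes and 0.48 over 12869 genes, which share the same 4 libraries. Scaled by library totals alone, the median of all genes moved by -0.94 and the split of the set became 8 higher and 29 lower. Under that scaling DTX3L, IFITM3, MX1, PARP12, DDX58, OAS3 and PARP9 changed sign, while PARP14, DDX60, IRF7, HERC5 and HERC6 stayed above input.

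**Figure D4:**
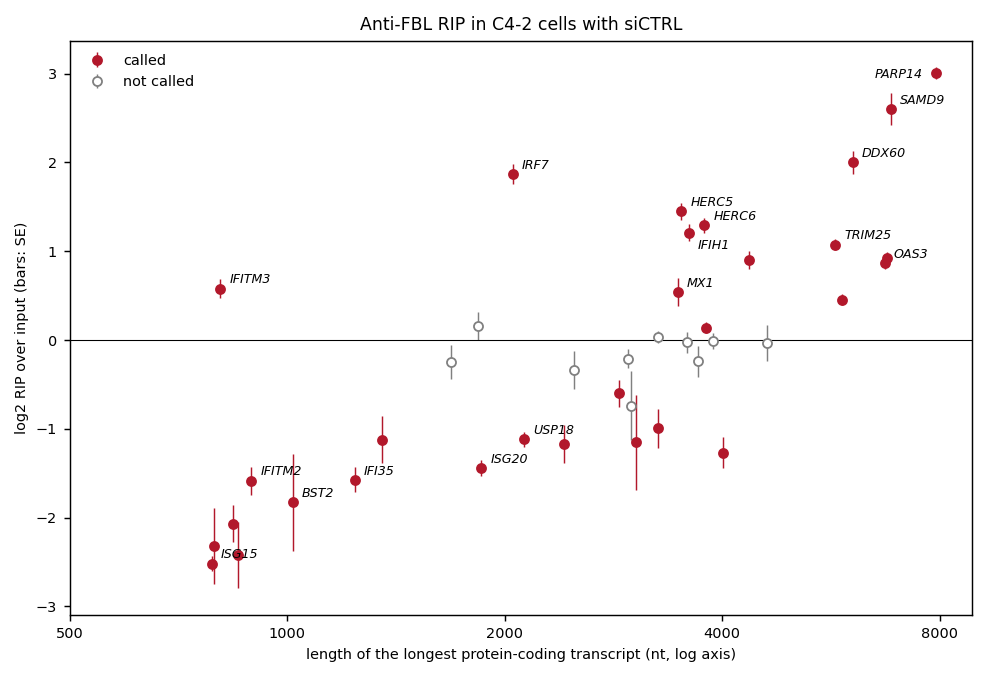
Log2 difference of anti-FBL RIP over input in C4-2 cells with siCTRL against transcript length in nucleotides for the 40 interferon response genes tested. The 10 genes of at least 4000 nt have a median of 0.91 and the 12 genes below 2000 nt a median of -1.58.

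SLAM-seq labels newly made RNA with 4-thiouridine, which is read as T-to-C changes, and counts reads over the ends of transcripts. In total reads and by the labelled hours, no interferon response gene was called between siFBL and siCTRL. There 31 genes were tested and 0 called by edgeR, against 0.929% of all genes, with 1 higher and 2 lower at an unadjusted p below 0.05, against 14.2%, and 0 by DESeq2, against 4.43%. FBL itself ran from 0 to 0.0862 CPM in siFBL libraries and from 0.126 to 1.94 CPM in siCTRL libraries. ISG15 ran from 53.0 through a median of 67.5 to 112 CPM in siFBL libraries and from 54.7 through 68.7 to 85.6 CPM in siCTRL libraries. IFI6 ran from 41.2 through 50.9 to 81.8 CPM in siFBL libraries and from 43.0 through 56.3 to 73.4 CPM in siCTRL libraries. The groups overlapped throughout for both. Their log2 differences were 0.08 (SE 0.14) and -0.01 (SE 0.15), and those of IFIT1, OASL and OAS1 were 0.09, 0.04 and -0.48.

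OAS3, lower with siFBL in C4-2 RNA-seq, was not called here: it ran from 0.440 through a median of 1.59 to 3.82 CPM in siFBL libraries and from 2.38 through 2.94 to 4.14 CPM in siCTRL libraries (log2 difference -1.01, SE 0.36, edgeR adjusted p = 0.203). RSAD2 (-1.89) was the other gene lower at an unadjusted p below 0.05, and BST2 (0.65) the one higher. USP18, TAP1, IRF7, IFI27, PSMB8 and PSMB9 had no reads in any of the 16 libraries, and 17 genes had at least 1000 reads in all. Whether the effects in RNA-seq and SLAM-seq of C4-2 cells differ was not tested.

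The hour named in the header of a SLAM-seq file differed from that in the label in 12 of 16 libraries, with the same siRNA in both. The share of all reads with a T-to-C change followed the header's hour: it was 53.5 to 53.8%, 31.2 to 31.4%, 19.7 to 20.1% and 5.18 to 5.35% at 0, 6, 12 and 24 h in siFBL libraries, and 56.7 to 56.8%, 34.9 to 35.5%, 23.0 to 23.2% and 11.1 to 11.2% in siCTRL libraries. With the header's hour in the fit, IFITM2 was called lower (-0.26, edgeR adjusted p = 0.0287), 1 of 31 genes against 11.6% of all genes. Without the libraries of header hour 24, IFITM2 (-0.36), STAT2 (-0.41) and OAS3 (-1.49) were called lower and ISG20 (0.32) higher, 4 of 31 against 18.3% of all genes. For the share of T-to-C reads, the edgeR fit by labelled hour joins libraries that differ widely in that share (11.1 to 56.8% in siCTRL libraries labelled 0 h) and called 0 of 25 genes, against 0.00% of all genes. At an unadjusted p below 0.05 it had 0 genes of the set, against 1.95% of all genes. By the header's hour 0 of 25 genes were called, against 0.372% of all genes, with 2 of the 25 at an unadjusted p below 0.05, against 11.3%. These fits take 1 difference between the siRNAs over all hours and did not test single hours. They scale T-to-C reads and other reads each to their own library total. A gene's difference is therefore relative to the share over all genes, and a change of its share as such was not tested.

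By the header's hour, IRF1 lost its label fastest among the genes plotted. Its share of T-to-C reads was 48.9% (Wilson 95% interval 44.4 to 53.5%), 2.88%, 1.85% and 0.635% at 0, 6, 12 and 24 h with siFBL, and 60.9% (57.0 to 64.7%), 7.56%, 1.81% and 0.281% with siCTRL. At 0 h the siCTRL libraries had 49.2 and 66.0%, further apart than the interval of the pooled share. The shares at 24 h rest on 4 of 630 reads with siFBL and 4 of 1423 reads with siCTRL, and such intervals cover counting error only. IRF1 was read over chr5:132481609-132483950 (hg38, minus strand). ISG20 stood at 60.3%, 25.4%, 12.2% and 4.26% with siFBL, and at 68.2%, 28.0%, 13.1% and 4.46% with siCTRL. It came down step by step in both groups.

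In IFITM3, ISG15 and IFI6 the share fell less from 0 to 12 h than in IRF1 and ISG20. These genes also began below the share over all reads, which at header hour 0 was 53.5 to 53.8% with siFBL and 56.7 to 56.8% with siCTRL. Whether a flat share reflects kept label was not tested. IFITM3 stood at 29.1%, 29.3%, 27.8% and 7.34% with siFBL, and at 33.8%, 32.6%, 30.6% and 10.2% with siCTRL, nearly flat until 12 h. ISG15 stood at 40.6%, 28.9%, 18.2% and 1.99% with siFBL, and at 45.2%, 34.8%, 26.1% and 5.15% with siCTRL. IFI6 stood at 15.1%, 20.2%, 18.2% and 4.23% with siFBL, and at 21.0%, 19.9%, 24.1% and 21.3% with siCTRL. At header hour 24 the libraries of IFI6 had 4.11 and 4.32% with siFBL, against 23.4 and 20.5% with siCTRL, over 5413 reads and 1591 reads in all. TRIM25 stood at 16.2% (14.9 to 17.7%) with siFBL at header hour 24, against 11.5% (9.85 to 13.4%) with siCTRL, the opposite order to IFI6 and to the libraries as a whole.

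**Figure D5:**
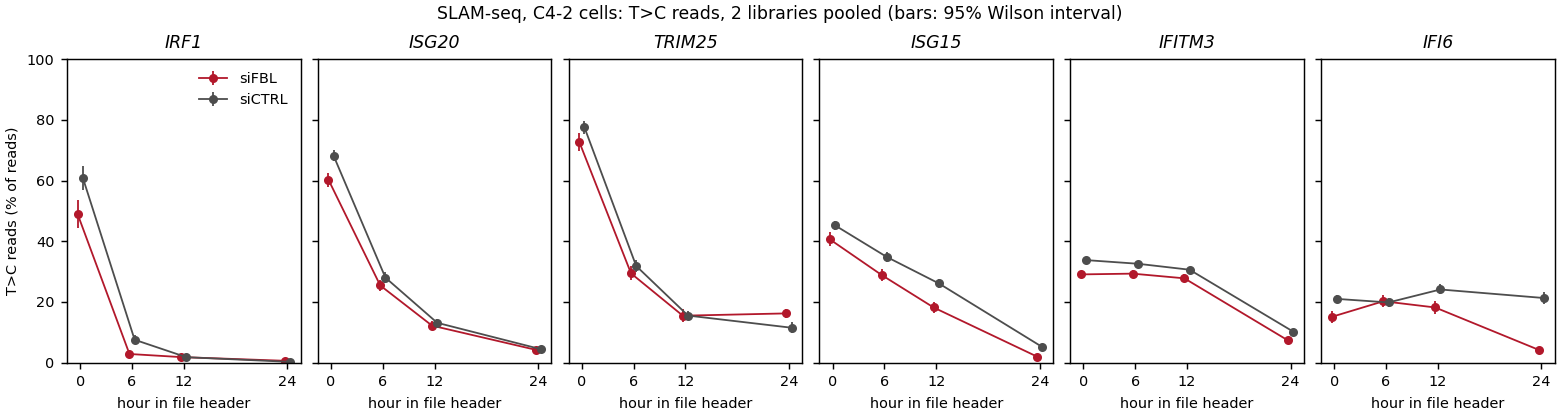
Share of reads with a T-to-C change in percent for IRF1, ISG20, TRIM25, ISG15, IFITM3 and IFI6 by the hour named in the file headers, siFBL and siCTRL libraries of C4-2 cells pooled by group, with Wilson 95% intervals. IRF1 is at 2.88% with siFBL and 7.56% with siCTRL at 6 h, while IFITM3 is at 29.3% and 32.6%.

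The 12 genes called in C4-2 at 0 h were set against the other readouts. Of the 10 that rose, ISG15, IFI6, OASL and OAS1 were lower in the anti-FBL RIP, 3 were not called there and 3 were not tested. Among all genes tested in the RIP 43.0% were lower and 39.9% higher. Of the 2 that fell, OAS3 was higher and USP18 lower in the RIP. The ISRE core was found in 6 of the 8 risen genes with a promoter, in the 1 fallen gene with a promoter (OAS3) and in 15 of the 29 other genes with one. With siCTRL, 4 of the 10 that rose and 1 of the 2 that fell had called positive slopes, as did 11 of the 46 genes and 15.9% of all genes.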

How the data were processed

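Messenger RNA was measured by RNA-seq, RIP-seq and SLAM-seq in C4-2 and HEK293T cells. The authors deposited raw counts per gene symbol for the RNA-seq and RIP-seq libraries, whole numbers that were used as deposited. The submitters' processing notes name TopHat2 2.1.1, HOMER, Trim Galore and the builds hg38, GRCh38.p13 and hg19 without saying which made which table, and use of strand is not stated there. For SLAM-seq the authors deposited counts of reads and of T-to-C reads per hg38 interval, which per the file headers come from slamdunk 0.4.3, beside a score of reads scaled to library size, which was not used. The SLAM-seq interval with the most reads stands for a gene.

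CPM are counts scaled to each library's total times its TMM factor, and so differ from a scaling by library totals alone. These factors were 1.39 and 1.38 in the input libraries and 0.722 and 0.721 in the RIP libraries. Each table was fitted whole with edgeR 4.0.16 in R 4.3.3: TMM scaling, filterByExpr, the quasi-likelihood test and Benjamini-Hochberg adjustment over all genes, called at 0.05. Contrasts of siRNAs used all hours of a line in 1 fit, slopes a linear term for the hour, and the interaction a joint fit of both lines. SLAM-seq shares were fitted as T-to-C against other reads, each scaled to its own total, so differences are relative to the share over all genes. Transcript length is that of the longest protein-coding transcript in GENCODE. The script was tested on simulated data. The alternatives were DESeq2 1.42.0, other scalings, no filter on low counts, hours or libraries left out and the replicate number as a block. Column names of C4-2 libraries give the group but not the sample. No replicate number was taken to pair libraries.

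The 46 genes and the other lists were chosen with earlier results of these data known. All genes of the set could be named. Values per library were given for genes called at 0 h (at most 12 per comparison), and for the 5 highest and 5 lowest RIP calls averaging at least 5 CPM. The labels name siNOP56 where the design text names shNOP56, and the labels were followed.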

Additional observations from a re-analysis of the deposited data

Results flagged for a closer look

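The effect of siFBL at 0 h differed between the cell lines for 5 interferon response genes, by edgeR's test of the difference itself (C4-2 minus HEK293T, log2 scale). The differences were 2.27 for IFI6, 2.86 for IFIT1, 4.17 for IFI44L, 3.66 for BST2 and 3.13 for OASL. IFI6 had 31.0 and 32.8 CPM in siFBL libraries of C4-2, against 10.1 and 8.12 CPM in siCTRL libraries, and 3.97 and 5.83 CPM in siFBL libraries of HEK293T, against 5.77 and 6.07 CPM in siCTRL libraries. IFIT1 had a log2 difference of siFBL over siCTRL of 1.32 in C4-2 and of -1.36 in HEK293T, where it was not called (adjusted p = 0.0603). OASL had 0 to 11 counts in the HEK293T libraries, where it did not pass the filter on low counts, and it entered the joint fit through its C4-2 counts. BST2 had 3 to 51 counts in the HEK293T libraries and was called at 0 h in neither line alone. The cause was not tested.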

How the results depend on the processing

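Over the alternatives, 923 of 930 values of called genes kept their direction and 840 kept their call. In C4-2 at 0 h 12 genes were called, against 1988 of 23437 genes, or 2089 when scaled by library totals. Scaled by library totals 19 were called, and leaving out single libraries gave 4 to 9. Among alternatives chosen after seeing the data, leaving out all 4 siFBL libraries A gave 25, 24 and 23 at 0, 3 and 6 h, and leaving out all 4 libraries B gave 21 at 0 h, in fits that assume the lone library varies like the rest. DESeq2 called 20 at 3 h in C4-2, against 3958 of 23437 genes. In HEK293T with siFBL, DESeq2 called 2, 3, 1 and 4 at 0, 6, 12 and 24 h, against 778, 1633, 2114 and 2669 of 14939 genes. Library totals gave 1 at 0 h, against 289. With siNOP56 DESeq2 called 2 at 0 h and 1 at 6 h, against 213 and 428. Leaving out single HEK293T libraries gave 0 throughout at 0 h, and single RIP libraries 27 to 32. Without the last hour, called slopes in C4-2 numbered 8 with siFBL and 7 with siCTRL, against 7206 and 5210 of 22525 genes. With the header's hour SLAM-seq called 1, and 4 without header hour 24. Under library totals the RIP differences of DDX58 (-0.038), DTX3L (-0.49), IFITM3 (-0.37), MX1 (-0.40), OAS3 (-0.079), PARP12 (-0.81) and PARP9 (-0.023) reversed. The cause was not tested, beyond the shift of -0.94 in the median of all genes.

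Same-numbered libraries did not all deviate together: the correlation of their deviations was -0.0765 to 0.0383 in C4-2 by the A or B mark, -0.0155 to 0.182 in HEK293T and 0.0961 in RIP-seq. In SLAM-seq it was 0.412 to 0.435 by the labelled number, where that number divides the same header hours in both siRNAs, and -0.00774 to 0.0238 by the header's hour and number. With the A or B mark as a block, chosen after seeing the data, 14, 16, 16 and 15 genes were called in C4-2 at 0, 3, 6 and 12 h. Counts over all genes rose too, to 2670, 3741, 2932 and 3966 of 23437. On sums of the 4 hours per mark, a contrast over all hours with 2 values per group, 18 were called (5676 of all genes), and IFI44L alone of the 12 genes lost its call. With the replicate number as a block in HEK293T, siFBL called 1, 2, 2 and 4 genes at 0, 6, 12 and 24 h. Of all 14939 genes, 861, 1981, 2490 and 3133 were called. At 24 h 1 gene of the set was higher and 3 lower. With siNOP56 1 was called at 6 h, against 388 of all genes. Without the block 260 of all genes were called at 0 h with siFBL. In SLAM-seq the block by labelled number called 0 of the set (142 genes of all, against 132), and the block by the header's number with the header's hour called 1.

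Counts over all genes moved more: with siFBL in C4-2 at 0 h 1988 genes were called, 633 to 1245 without single libraries, 3980 with DESeq2, and 5941 and 6415 without all siFBL libraries A or B. With siFBL in HEK293T at 0 h DESeq2 called 778 and single libraries left out gave 11 to 140. SLAM-seq gave 629 with DESeq2, 596 with no filter, and 1655 and 2552 with the header's hour. Depth limits genes below 1 CPM, where a few reads decide a value.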
